A study of Rattus norvegicus with 6 samples.

Results

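The smooth muscle, actomyosin and SRF target genes of IEC-6 cells were examined after depletion of Suz12. Their list held 55 symbols, which stood for 54 genes because Mkl1 is the older name of Mrtfa, and a gene was measured where at least 1 probe set was annotated to its symbol and to no other. By that rule 51 genes with 98 probe sets were members, of 14217 genes with a symbol and 31042 probe sets tested. The beta actin gene Actb, the cardiac actin gene Actc1 and the essential myosin light chain gene Myl6 had no probe set of their own, and 9 further probe sets that a member shared with another symbol were not counted. Of the measured genes, 29 had 1 probe set and 22 had several, with at most 12, for Tpm3.

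RNA came from ShSuz12 cells and from ShControl cells, both derived from IEC-6, a line of undifferentiated rat small intestinal crypt cells kept in medium with fetal bovine serum. ShSuz12 cells carried a lentiviral short hairpin RNA against Suz12, a subunit of the Polycomb repressive complex PRC2 that methylates histone H3 at lysine 27, and ShControl cells carried a scrambled hairpin. Both were populations under puromycin selection, with 1 hairpin and 1 cell line in each group, and the density of the cells at RNA collection was not given in the sources used here. Each group had 3 Affymetrix rat arrays, with RNA of independent experiments. Values are log2 RMA values, in which 1 unit is a 2-fold step, and a fold change is the ShSuz12 mean minus the ShControl mean on that scale. A probe set passed at an adjusted p under 0.05 from limma, with Benjamini-Hochberg adjustment over all probe sets tested. In RNA of whole populations, fewer expressing cells and less RNA in each cell cannot be told apart.

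Contractile force in smooth muscle and in motile non-muscle cells comes from myosin II pulling on actin filaments, which tropomyosins, calponins, caldesmon and transgelin line and which alpha-actinins and filamins crosslink. Many of these genes share a DNA element, the CArG box, that binds the transcription factor SRF. Myocardin and the myocardin-related factor Mrtfa act as SRF coactivators, and Mrtfa enters the nucleus when actin polymerizes and depletes the free actin monomers that hold it in the cytoplasm. Intestinal epithelial cells use the non-muscle forms of this machinery, while the smooth muscle forms mark the muscle layers and the myofibroblasts around the crypts.

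Because the list names SRF targets, the RefSeq promoter windows of the GRCr8 assembly were searched for an exact CArG box, 250 bases before to 50 bases after each annotated start. Of the 54 genes, 45 were matched, with 56 windows. The box was found in 9 windows (16.1%) of 8 genes, against 1.64% of all 33469 RefSeq windows. The 8 genes were Acta1, Actc1, Actg1, Cnn2, Fhl1, Fhl2, Lima1 and Srf. The muscle element CATTCC, read on either strand, was in 13 member windows (23.2%), against 14.2% of all windows, and overlapped a CArG box in 0 of the 2 member windows that held both. The genes not matched were Actb, Myh11, Myl9, Tagln, Lmod1, Actn4, Pdlim3, Myocd and Thy1. A match describes letters only, and its absence from a window says only that these letters are not there.

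The 150 bases before the start are printed for the 2 starts of Fhl2 and the start of Csrp2, which rose most among the members. They are also printed for 1 of the 2 starts of Fhl1 and for Acta2, which fell, and for Srf itself. Each is written 5' to 3' on the strand of the gene, and capitals mark the CArG box. The first Fhl2 stretch is chr9:52954541-52954690 and the other chr9:52923327-52923476, both on the minus strand, Csrp2 is chr7:48235265-48235414 on the plus strand, and Fhl1 is chrX:139638346-139638495 on the plus strand. Acta2 is chr1:241172504-241172653 on the minus strand and Srf is chr9:21923926-21924075 on the plus strand.
Fhl2, first start: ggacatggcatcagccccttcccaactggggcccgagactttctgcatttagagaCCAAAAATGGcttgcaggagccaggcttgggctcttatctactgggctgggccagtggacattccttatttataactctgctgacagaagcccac
Fhl2, other start: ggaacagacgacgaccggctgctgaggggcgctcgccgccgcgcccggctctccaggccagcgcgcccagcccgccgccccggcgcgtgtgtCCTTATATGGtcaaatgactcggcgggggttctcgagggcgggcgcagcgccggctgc
Csrp2: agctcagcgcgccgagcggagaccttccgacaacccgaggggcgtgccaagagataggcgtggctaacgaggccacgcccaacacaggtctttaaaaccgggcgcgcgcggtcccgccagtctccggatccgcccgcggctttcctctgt
Fhl1: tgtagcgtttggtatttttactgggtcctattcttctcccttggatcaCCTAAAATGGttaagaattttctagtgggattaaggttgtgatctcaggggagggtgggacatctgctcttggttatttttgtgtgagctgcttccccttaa
Acta2: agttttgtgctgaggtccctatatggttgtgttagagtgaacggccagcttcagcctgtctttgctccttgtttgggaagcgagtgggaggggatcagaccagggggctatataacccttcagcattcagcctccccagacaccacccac
Srf: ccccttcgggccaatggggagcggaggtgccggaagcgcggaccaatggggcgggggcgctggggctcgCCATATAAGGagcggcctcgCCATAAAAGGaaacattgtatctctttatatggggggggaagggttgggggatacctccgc
Both Fhl2 stretches held a box, beginning 95 and 58 bases before the start. The Srf stretch held 2, beginning 81 and 61 bases before it, and the Fhl1 stretch held 1, beginning 102 bases before it. The window of the other Fhl1 start, not printed here, held no exact box. The Csrp2 and Acta2 windows held no exact box. The Acta2 stretch reads ccctatatgg and ccttgtttgg, each 1 letter away from an exact box, and such near matches were not searched for. Genes with an exact box differed in direction between ShSuz12 and ShControl cells. Fhl2 rose, Fhl1 and Srf fell, and Acta1, Cnn2, Lima1 and the brightest Actg1 probe set did not pass the test.

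Suz12 itself checked the labels. It was at 5.82, 5.77 and 5.91 in ShSuz12 cells, against 8.45, 8.55 and 8.77 in ShControl cells, a 6.77-fold lower level (adjusted p = 2.78e-07 from limma). Arrays of 1 group correlated with each other at 0.997 or more, and arrays of different groups at no more than 0.980. The array medians were 6.26 to 6.27 in ShSuz12 cells and 6.15 to 6.17 in ShControl cells, and log2 fold changes had a median of -0.05 over the whole table.

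The actomyosin genes moved in both directions, by less than 2-fold at all but 3 probe sets. Of the 98 member probe sets, 19 were higher in ShSuz12 cells, against 14.8% of all probe sets, and 28 were lower, against 19.5% of all probe sets. The member shares were 19.4% higher and 28.6% lower, and 51 probe sets did not pass. With each array's median subtracted, 15 were higher and 49 lower, against 11.5% and 37.9% of all probe sets under that scaling. Their median log2 fold change was -0.11, beside -0.05 over all probe sets, with a range of -0.98 to 1.36. At least 2-fold changes were few: 3 member probe sets were higher by that much, against 3.10% of all, and 0 were lower, against 0.396% of all. That count was also 0 by the methods' t-test with or without adjustment, while at any size 40 were lower at an unadjusted p under 0.05 from limma. For counts at an unadjusted p or by the methods' t-test, here and below, no share of all probe sets is given. Such counts alone do not set the members apart from the other probe sets. With 1 brightest probe set for a gene, 10 of 51 genes were higher and 16 were lower, against 17.1% and 23.3% of all genes. The ShSuz12 and ShControl arrays did not overlap for 22 probe sets with the higher values in ShSuz12 cells, against 19.4% of all, and for 39 with the lower values in ShSuz12 cells, against 28.1% of all.

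**Figure D1:**
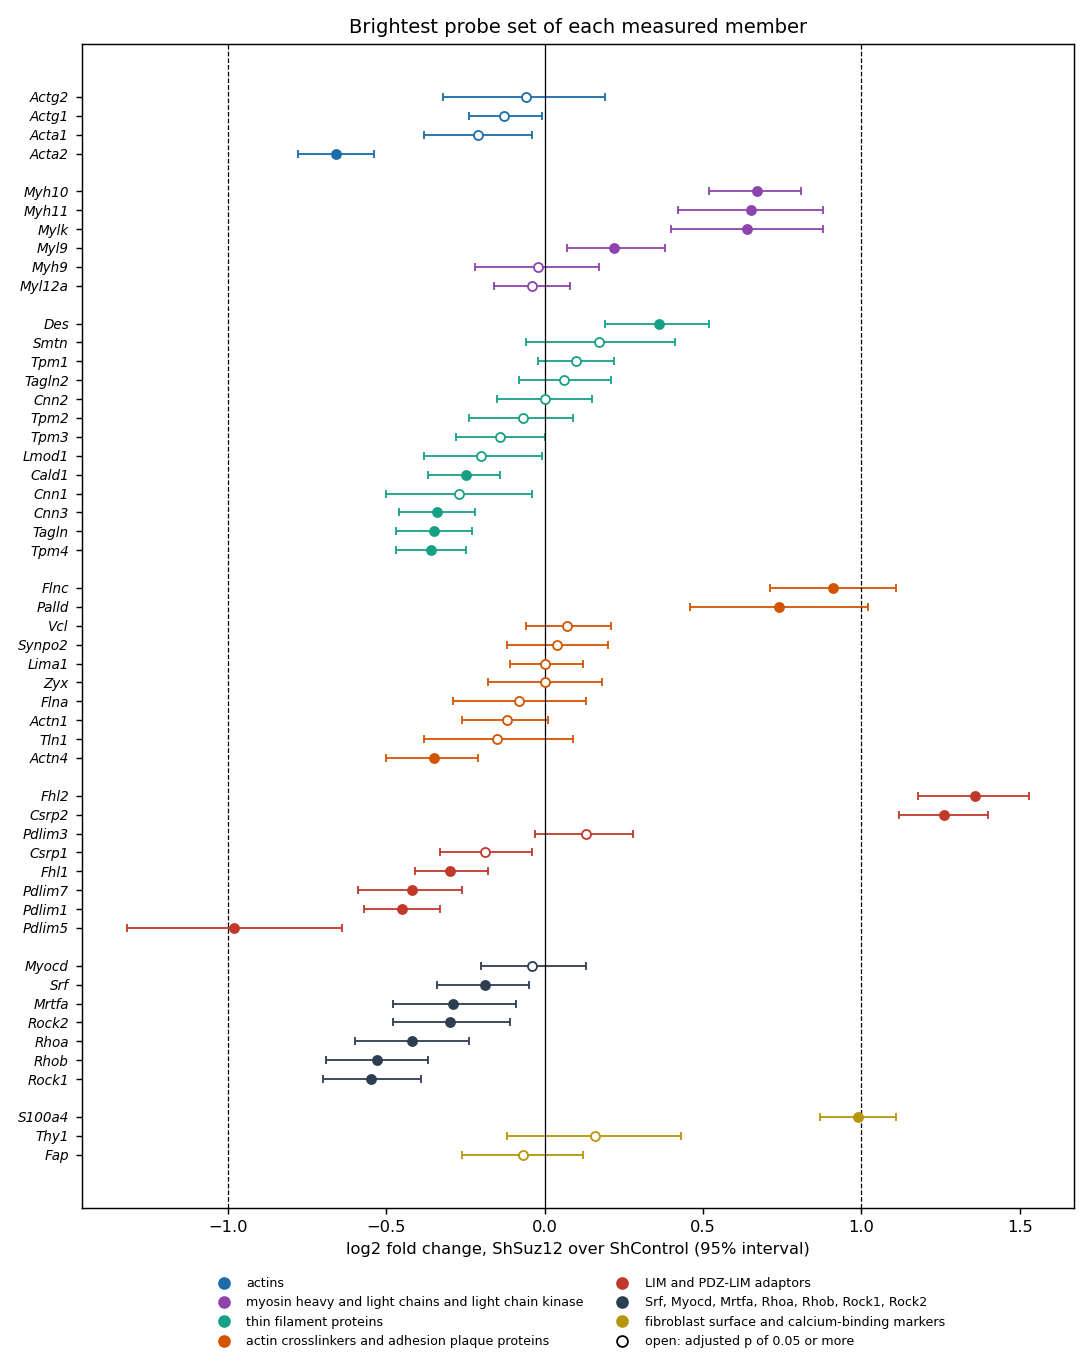
Log2 fold change of ShSuz12 over ShControl at the brightest probe set of each of the 51 measured genes, in 7 role groups, with 95% intervals from limma; filled points passed an adjusted p under 0.05 and dashed lines mark 2-fold. Fhl2 and Csrp2 lie beyond 2-fold on the higher side, Pdlim5 lies lowest at -0.98, and 6 of the 7 genes Srf, Myocd, Mrtfa, Rhoa, Rhob, Rock1 and Rock2 lie on the lower side with filled points.

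The members were then divided by their level in ShControl cells. A probe set was called near the floor below the 25th percentile of ShControl means (log2 4.45) and bright above the 75th (log2 8.30). Of 16 near-floor member probe sets, from 13 genes, 1 was higher and 0 were lower, against 9.73% and 4.50% of all near-floor probe sets. At an unadjusted p under 0.05, 4 were lower from limma (in Acta1, Cnn1, Lmod1 and Pdlim5) and 1 by the methods' t-test, whose adjusted p passed none of the 16. All 16 were still near the floor in ShSuz12 cells, and 7 genes had no probe set above it. Of 33 probe sets of middle level, 14 were higher (42.4%) and 5 were lower (15.2%), against 17.8% and 18.3% of all probe sets of that level. Of 49 bright probe sets, 4 were higher (8.16%) and 23 were lower (46.9%), against 14.0% and 36.9% of all bright probe sets. Several of these probe sets belong to the same genes, Tpm1 and Tpm3 above all, so they are not independent. With the brightest probe set alone, 7 of 11 genes of middle level were higher (Csrp2, Des, Fhl2, Flnc, Myh11, Myl9 and Mylk) and 15 of 33 bright genes were lower, against 22.1% and 37.2% of all genes of those levels. At the limits, Cnn1 lay just inside the near-floor class at the 22.5th percentile, Pdlim3 just outside it at the 27.4th, Acta2 just inside the bright class at the 75.2nd and a Tpm3 probe set just outside it at the 70.7th.

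**Figure D2:**
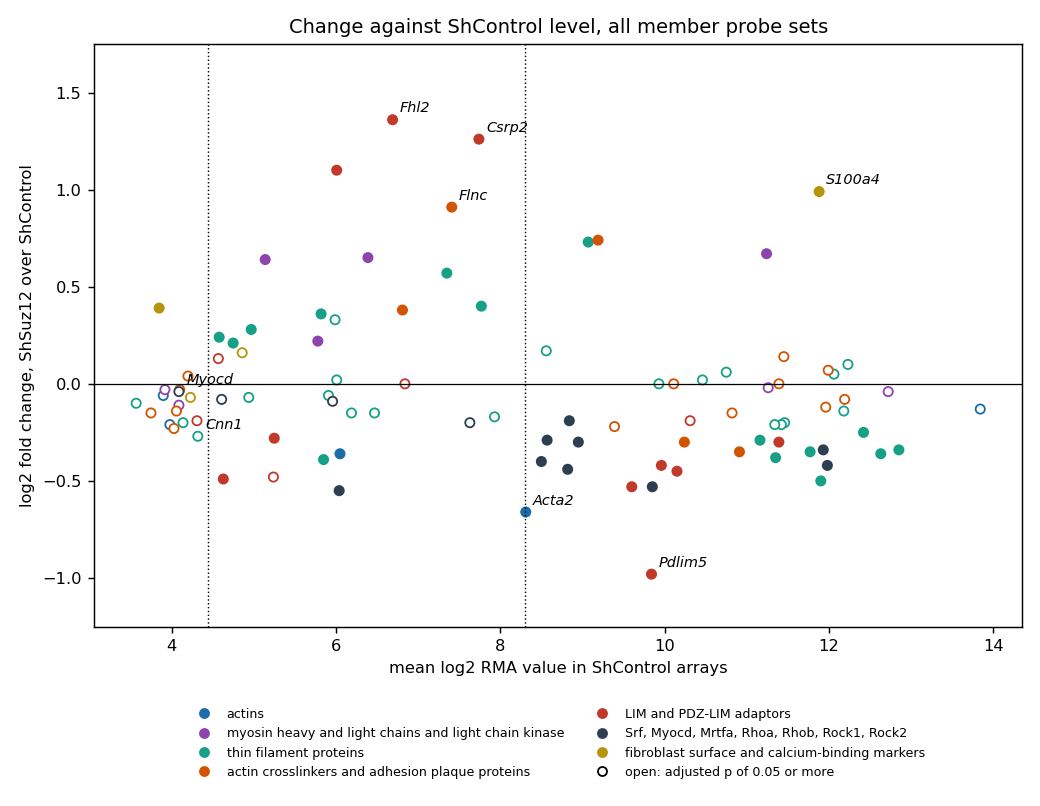
Log2 fold change of ShSuz12 over ShControl against the mean log2 RMA value in ShControl cells for the 98 member probe sets, coloured by role, with dotted lines at the near-floor limit (4.45) and the bright limit (8.30); filled points passed an adjusted p under 0.05. Probe sets left of 4.45 stay between -0.27 and 0.39, those of middle level reach 1.36, and most filled points on the bright side lie below 0.

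**Figure D3:**
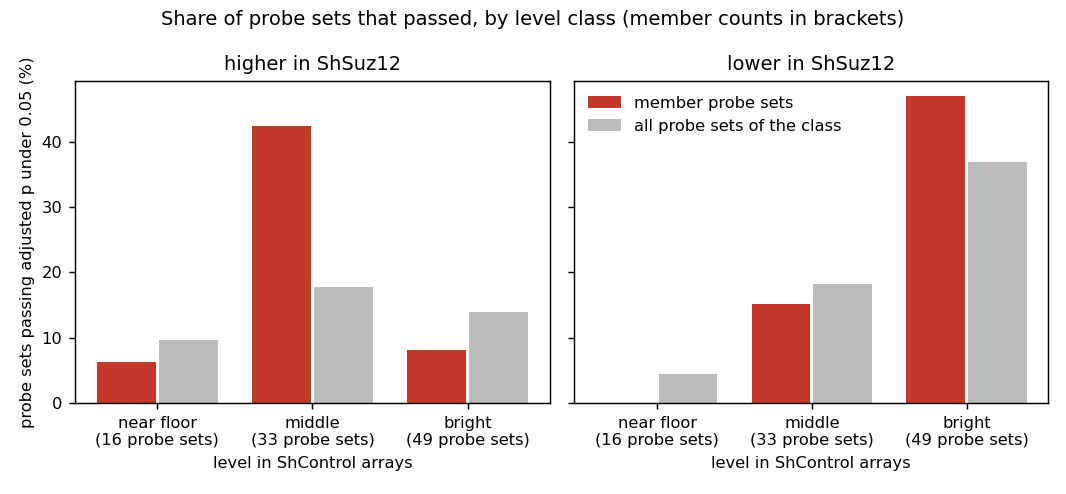
Share of probe sets (in percent) that passed an adjusted p under 0.05, higher in ShSuz12 cells at left and lower at right, for the member probe sets (red) and for all probe sets of the same level class (grey). The member shares are 42.4% higher in the middle class, against 17.8% of all, and 46.9% lower in the bright class, against 36.9% of all.

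Among the actins, smooth muscle alpha actin fell and the 2 other muscle actins measured stayed near the floor. Acta2, whose product is the defining actin of vascular smooth muscle and myofibroblasts, had values of 7.61, 7.66 and 7.68 in ShSuz12 cells, against 8.34, 8.27 and 8.31 in ShControl cells. Every ShSuz12 array lay below every ShControl array, with a log2 fold change of -0.66 (SE 0.05, 1.58-fold lower, adjusted p = 4.22e-05 from limma). Actg2, the gamma actin of enteric smooth muscle, had values of 3.88, 4.01 and 3.61 in ShSuz12 cells and of 4.04, 3.77 and 3.87 in ShControl cells. The arrays of the groups overlapped, at the floor of the array (adjusted p = 0.697 from limma). Acta1, the skeletal muscle alpha actin, was at 3.72, 3.83 and 3.75 in ShSuz12 cells, against 4.08, 3.84 and 4.02 in ShControl cells (log2 fold change -0.21, adjusted p = 0.0576 from limma). It passed without ShControl replicate 2 (adjusted p = 0.0117). It also passed with each array's median subtracted (adjusted p = 0.00805 from limma), a scaling under which 41.7% of all genes fell.

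Actg1, the cytoplasmic gamma actin that all non-muscle cells use, lay at the 99.9th percentile of ShControl means. Its values were 13.74, 13.71 and 13.70 in ShSuz12 cells, against 13.87, 13.81 and 13.86 in ShControl cells. The arrays did not overlap, but the log2 fold change of -0.13 did not pass (SE 0.05, adjusted p = 0.0866 from limma). A dimmer probe set of the gene fell by 0.36 on the log2 scale (adjusted p = 0.0091 from limma). The brightest one passed in 5 alternative treatments of the data, among them a filter on dim probe sets (adjusted p = 0.04).

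Myosin heavy chain, light chain and light chain kinase genes were on the other side: 4 of the 6 genes measured rose and 0 fell, against 17.1% and 23.3% of all genes. With each array's median subtracted 3 rose and 1 fell, against 13.6% and 41.7% of all genes. Without that step 0 were lower also at an unadjusted p under 0.05 from limma or the methods' t-test. Myh10, a non-muscle myosin II heavy chain, had values of 11.91, 11.88 and 11.92 in ShSuz12 cells, against 11.13, 11.32 and 11.26 in ShControl cells. The groups were apart by more than the spread of either, with a log2 fold change of 0.67 (SE 0.06, 1.59-fold, adjusted p = 1.14e-04 from limma). Myh9, the other non-muscle heavy chain of the list, was also bright and overlapped between the groups, at 11.19, 11.17 and 11.35 in ShSuz12 cells and 11.38, 11.28 and 11.11 in ShControl cells (adjusted p = 0.862 from limma). The regulatory light chain gene Myl12a also overlapped, with a mean of 12.68 in ShSuz12 cells and 12.72 in ShControl cells.

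The smooth muscle myosin heavy chain gene Myh11 was measured by 2 probe sets, 1 of which rose. The brighter was at 7.18, 7.01 and 6.93 in ShSuz12 cells, against 6.49, 6.49 and 6.19 in ShControl cells. It rose by 0.65 without overlap (SE 0.10, adjusted p = 0.00153 from limma). The other lay near the floor at 3.95 to 4.10 in ShSuz12 cells and 4.03 to 4.19 in ShControl cells. Mylk, the kinase that phosphorylates the myosin regulatory light chain, was also read by 2 probe sets. Its brighter probe set was at 5.77, 5.92 and 5.64 in ShSuz12 cells, against 5.33, 5.08 and 5.00 in ShControl cells, a log2 fold change of 0.64 (SE 0.10, adjusted p = 0.00207 from limma), and its other one stayed near the floor with overlapping arrays. Myl9, the regulatory light chain of smooth muscle myosin, rose by a small step, at 6.09, 5.99 and 5.94 in ShSuz12 cells and 5.89, 5.72 and 5.75 in ShControl cells (log2 fold change 0.22, SE 0.07, adjusted p = 0.0361 from limma). That call was lost without ShControl replicate 2 or 3 (adjusted p = 0.0912 and 0.0988), without ShSuz12 replicate 1 or 2 (adjusted p = 0.117 and 0.0788), and with each array's median subtracted (adjusted p = 0.169).

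**Figure D4:**
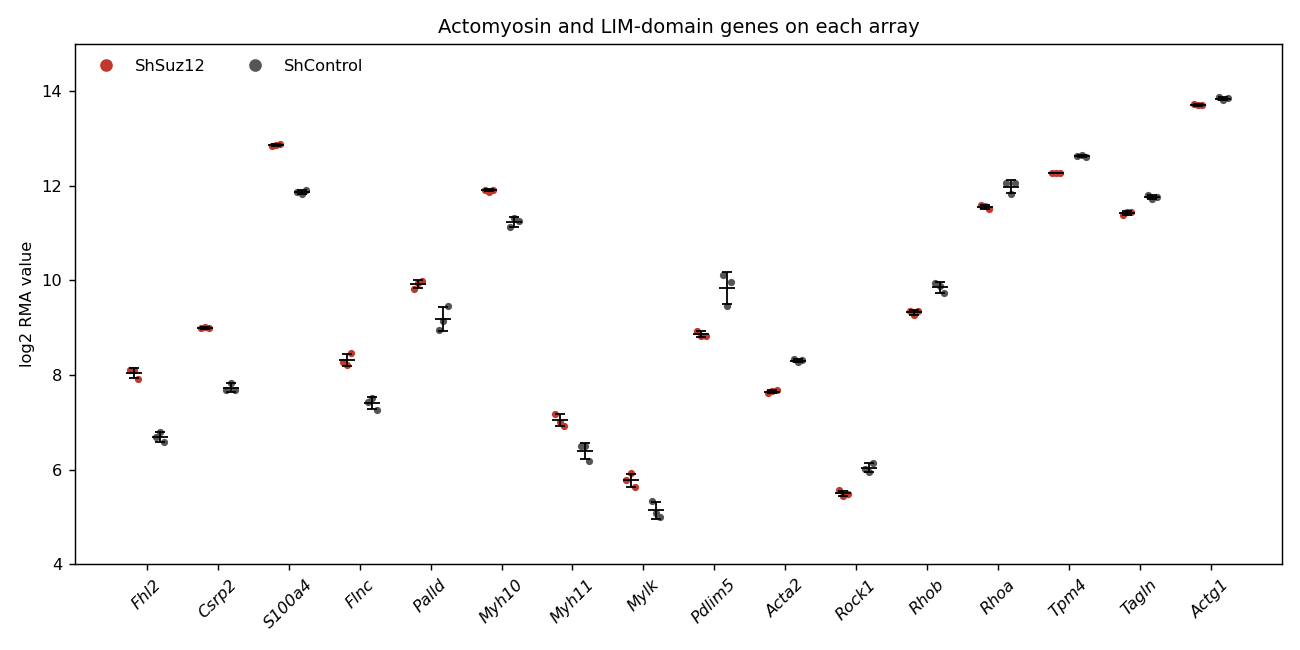
Log2 RMA values of 16 members on each array at their brightest probe set, with ShSuz12 arrays in red at left and ShControl arrays in grey at right of each gene; bars are mean and SD (n = 3 each). The 8 genes at left are higher in ShSuz12 cells and the next 7 lower, without overlap between the groups, and Actg1 at far right differs by -0.13.

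Of 13 thin filament genes, 1 rose and 4 fell at the brightest probe set (30.8%), against 17.1% and 23.3% of all genes and, for the bright class of the 4, 37.2% lower. With each array's median subtracted 7 fell (53.8%), against 41.7% of all genes. Tagln, which encodes transgelin and is a standard marker of smooth muscle and of SRF activity, had values of 11.38, 11.45 and 11.44 in ShSuz12 cells, against 11.81, 11.73 and 11.77 in ShControl cells. It was bright in both groups and fell by 0.35 without overlap (SE 0.05, 1.27-fold lower, adjusted p = 0.00142 from limma). Cnn3, the calponin of non-muscle cells, fell by 0.34 (adjusted p = 0.00165) and Cald1, the actin and myosin binding protein caldesmon, fell by 0.25 where it was brightest (adjusted p = 0.00546), both from limma. A second bright Cald1 probe set overlapped between the groups (log2 fold change 0.02, adjusted p = 0.885 from limma). Tagln2 and Cnn2, paralogs found outside muscle, overlapped between the groups, with means of 10.82 and 9.93 in ShSuz12 cells and of 10.75 and 9.93 in ShControl cells. Cnn1 and Lmod1, a calponin and a leiomodin that mark differentiated smooth muscle, were both near the floor. Cnn1 was at 4.17, 3.88 and 4.10 in ShSuz12 cells and 4.41, 4.40 and 4.15 in ShControl cells (adjusted p = 0.0685 from limma). Des, the muscle intermediate filament protein desmin, rose by 0.36, at 6.10, 6.11 and 6.32 in ShSuz12 cells, against 5.79, 5.79 and 5.88 in ShControl cells (SE 0.07, adjusted p = 0.00656 from limma). Smtn, the smoothelin gene, did not pass at either of its probe sets (log2 fold changes of 0.17 and -0.15).

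The 4 tropomyosin genes, whose products wind along actin and control the access of myosin, had calls in both directions. Tpm4 fell at both of its probe sets. The brighter was at 12.27 on all 3 ShSuz12 arrays, against 12.64, 12.65 and 12.60 in ShControl cells (log2 fold change -0.36, SE 0.05, adjusted p = 7.55e-04 from limma), and the other fell by 0.50 (adjusted p = 0.00113). Tpm1 rose at 5 of its 7 probe sets, against 14.8% of all probe sets, and its 2 brightest did not pass. The brightest was at 12.34, 12.31 and 12.35 in ShSuz12 cells and 12.28, 12.21 and 12.20 in ShControl cells (log2 fold change 0.10, adjusted p = 0.186 from limma), while a dimmer one was at 9.66, 9.78 and 9.97 in ShSuz12 cells, against 8.96, 9.11 and 9.14 in ShControl cells (log2 fold change 0.73, SE 0.09, adjusted p = 4.77e-04 from limma). Rises of 0.57, 0.40, 0.28 and 0.21 at the others completed the range. The rise of 0.28 was lost without ShControl replicate 1 or 3 or ShSuz12 replicate 2 or 3 (adjusted p = 0.0815 to 0.119), and that of 0.21 without ShControl replicate 1 or ShSuz12 replicate 3 (adjusted p = 0.0769 and 0.0854).

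At an unadjusted p under 0.05 from limma, 5 of the 12 probe sets of Tpm3 were lower and 0 higher. With adjustment 3 fell (25.0%) and 0 rose, against 19.5% and 14.8% of all probe sets and 36.9% lower of the bright ones. Those that fell did so by 0.39, 0.38 and 0.29, and the brightest was not among them (log2 fold change -0.14, adjusted p = 0.120 from limma). The fall of 0.29 was lost without ShControl replicate 1 or 3 or ShSuz12 replicate 1 or 2 (adjusted p = 0.0584 to 0.104). Tpm2, the beta tropomyosin of muscle, was dim at both probe sets, at -0.07 for the brighter (adjusted p = 0.481) and 0.24 for the other (adjusted p = 0.0362 from limma). This call was lost without any 1 of 5 arrays (adjusted p = 0.0619 to 0.115), all but ShSuz12 replicate 3, and with the replicate number as a block (adjusted p = 0.0532).

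Of 10 actin crosslinkers and adhesion plaque genes, 2 rose and 1 fell at the brightest probe set, against 17.1% and 23.3% of all genes, so neither share of the 10 was far above that of all genes. Flnc, the muscle filamin that ties actin filaments to each other and to the membrane, had values of 8.28, 8.22 and 8.46 in ShSuz12 cells, against 7.43, 7.52 and 7.27 in ShControl cells. It rose by 0.91 without overlap (SE 0.09, 1.88-fold, adjusted p = 1.21e-04 from limma), and by 0.38 at its other probe set (adjusted p = 0.00471). Flna, the filamin found in nearly all cells, averaged 12.10 in ShSuz12 cells and 12.19 in ShControl cells and overlapped. Palld, the palladin that organizes stress fibers, was at 9.82, 9.95 and 9.99 in ShSuz12 cells, against 8.95, 9.15 and 9.46 in ShControl cells, where the arrays were spread more widely (log2 fold change 0.74, SE 0.12, adjusted p = 0.00219 from limma). Actn4, a non-muscle alpha-actinin, was at 10.47, 10.55 and 10.65 in ShSuz12 cells, against 10.87, 10.95 and 10.90 in ShControl cells, a fall of 0.35 (SE 0.06, adjusted p = 0.0034 from limma). Its paralog Actn1 did not pass at the brightest probe set (log2 fold change -0.12) and fell by 0.30 at the other (adjusted p = 0.0168), a call that was lost without ShControl replicate 1 (adjusted p = 0.0557) or ShSuz12 replicate 3 (adjusted p = 0.061). The focal adhesion genes Vcl, Zyx and Tln1 and the actin bundler gene Lima1 did not pass, with log2 fold changes from -0.15 to 0.07 at their brightest probe sets. Synpo2, a smooth and striated muscle protein, was near the floor at all 4 of its probe sets.

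The widest range was among the LIM-domain adaptors, proteins that carry zinc-binding LIM modules and sit on actin filaments or move to the nucleus. Fhl2, a LIM-only cofactor that is itself an SRF target, had values of 8.11, 8.11 and 7.91 in ShSuz12 cells, against 6.69, 6.79 and 6.59 in ShControl cells. Its groups lay more than 1 log2 unit apart, with a fold change of 2.56 (log2 1.36, SE 0.08, adjusted p = 6.91e-06 from limma). At the other Fhl2 probe set values of 6.96, 7.10 and 7.27 in ShSuz12 cells stood against 5.96, 5.97 and 6.10 in ShControl cells, a 2.14-fold rise (log2 1.10, SE 0.09, adjusted p = 3.82e-05 from limma). Csrp2, a LIM protein known from arterial smooth muscle, was at 8.99, 9.02 and 8.99 in ShSuz12 cells, against 7.68, 7.84 and 7.68 in ShControl cells. It rose 2.40-fold (log2 1.26, SE 0.06, adjusted p = 2.75e-06 from limma). These 3 probe sets were the members' changes of at least 2-fold.

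Their paralogs Fhl1 and Csrp1 were not among the genes that rose. Fhl1, the LIM-only protein of striated muscle, was at 11.11, 11.07 and 11.10 in ShSuz12 cells, against 11.38, 11.40 and 11.40 in ShControl cells, a fall of 0.30 (SE 0.05, adjusted p = 0.00212 from limma). Its 2 dimmer probe sets fell too, by 0.53 and 0.49. The fall of 0.49, at the dimmest, was lost without ShControl replicate 1 or 3 or ShSuz12 replicate 1 or 3 (adjusted p = 0.0623 to 0.0775). Csrp1 had a log2 fold change of -0.19 that did not pass (adjusted p = 0.0525 from limma), although its arrays did not overlap.

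Of the 4 PDZ-LIM genes, whose products anchor kinases and other partners to alpha-actinin, 3 fell at the brightest probe set, against 23.3% of all genes and 37.2% of bright genes, the class of those 3. Pdlim5 had the lowest log2 fold change of any member, with values of 8.94, 8.83 and 8.83 in ShSuz12 cells, against 10.11, 9.47 and 9.96 in ShControl cells. The ShControl arrays were spread widely, yet all lay above the ShSuz12 arrays (log2 fold change -0.98, SE 0.15, 1.97-fold lower, adjusted p = 0.0014 from limma). The fall was just under 2-fold and went past it without ShControl replicate 2 (log2 fold change -1.17) or ShSuz12 replicate 1 (-1.02). Pdlim1 fell by 0.45 (SE 0.05, adjusted p = 3.25e-04 from limma). Pdlim7 was at 9.50, 9.50 and 9.62 in ShSuz12 cells, against 9.97, 10.06 and 9.85 in ShControl cells, a fall of 0.42 (SE 0.07, adjusted p = 0.00217 from limma). Pdlim3, the PDZ-LIM gene of muscle, was dim and did not pass (log2 fold change 0.13).

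The regulators of the program were lower at every gene that passed. Of 13 probe sets for Srf, Myocd, Mrtfa, Rhoa, Rhob, Rock1 and Rock2, 9 fell (69.2%) and 0 rose, against 19.5% and 14.8% of all probe sets and 36.9% lower of the bright ones. By gene 6 of 7 fell, against 23.3% of all genes, and 5 of the 7 were bright, a class with 37.2% lower. None was higher at an unadjusted p under 0.05 from limma or the methods' t-test, and 6 of the 13 probe sets were lower by the methods' t-test with adjustment. At the brightest probe set 3 of the 6 genes kept the call by that test (Rhoa, Rhob and Rock1), and Rock2 kept it at its 2 other called probe sets. The exception was Myocd, the smooth and cardiac muscle coactivator, which was near the floor at 4.06, 4.16 and 3.95 in ShSuz12 cells and 4.15, 4.02 and 4.10 in ShControl cells (adjusted p = 0.737 from limma). Rhob, a small GTPase induced by growth factors and stress, was at 9.35, 9.26 and 9.36 in ShSuz12 cells, against 9.94, 9.89 and 9.73 in ShControl cells. Its groups did not overlap, with a log2 fold change of -0.53 (SE 0.07, adjusted p = 7.05e-04 from limma). Rhoa, the GTPase that drives stress fiber assembly, was at 11.60, 11.57 and 11.51 in ShSuz12 cells, against 12.06, 11.82 and 12.07 in ShControl cells. It fell by 0.42 (SE 0.08, adjusted p = 0.004 from limma), and by 0.34 at its other probe set (adjusted p = 0.00221).

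Both kinases that RhoA activates to raise myosin phosphorylation were also lower. Rock1 was at 5.56, 5.45 and 5.48 in ShSuz12 cells, against 6.02, 5.96 and 6.15 in ShControl cells (log2 fold change -0.55, SE 0.07, 1.46-fold lower, adjusted p = 4.52e-04 from limma). Rock2 fell at 3 of its 4 probe sets, by 0.44, 0.40 and, at the brightest, 0.30 (adjusted p = 0.0215 from limma). The last call was lost without ShControl replicate 1 (adjusted p = 0.0539), ShSuz12 replicate 1 (0.0671) or ShSuz12 replicate 3 (0.0707).

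The falls of Srf and Mrtfa were smaller and less secure. Srf was at 8.63, 8.67 and 8.65 in ShSuz12 cells, against 8.82, 8.95 and 8.76 in ShControl cells. The arrays did not overlap, with a log2 fold change of -0.19 (SE 0.06, adjusted p = 0.0434 from limma), and the 2 dimmer Srf probe sets did not pass (-0.09 and -0.08). The call was lost without ShControl replicate 1 (adjusted p = 0.0794) or 2 (0.0965) and without ShSuz12 replicate 1 (0.116), 2 (0.0855) or 3 (0.104), and with the replicate number as a block (0.0646). Mrtfa was at 8.29, 8.32 and 8.26 in ShSuz12 cells, against 8.55, 8.76 and 8.41 in ShControl cells. It fell by 0.29 (SE 0.09, adjusted p = 0.035 from limma), and this call was lost without ShControl replicate 1 (0.0733) or 2 (0.0578) or any single ShSuz12 array (0.0719 to 0.0997).

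The list also held 3 markers used for fibroblasts. S100a4, a calcium-binding protein also called fibroblast-specific protein, was at 12.85, 12.87 and 12.88 in ShSuz12 cells, against 11.88, 11.83 and 11.92 in ShControl cells. The groups were a little under 1 log2 unit apart (0.99, SE 0.05, 1.99-fold, adjusted p = 3.92e-06 from limma). Fap, a serine protease of activated fibroblasts, was near the floor in both groups. Thy1, a surface glycoprotein, did not pass at its brighter probe set (log2 fold change 0.16), while the dimmer was at 4.06, 4.39 and 4.27 in ShSuz12 cells, against 3.91, 3.82 and 3.82 in ShControl cells (log2 fold change 0.39, adjusted p = 0.00921 from limma). It was the only near-floor member probe set that passed, and it did not pass by the methods' t-test with Benjamini-Hochberg adjustment (adjusted p = 0.062).

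Probe sets of 1 gene read different stretches of its transcripts, so a further test asked whether each gene's probe sets changed by the same amount. Of 47 member pairs of a further and the brightest probe set, 9 differed at an adjusted p under 0.05 from limma, against 13.3% of 6609 pairs over all genes. In 3 of the 9, in Myh11, Mylk and Pdlim5, the further probe set was near the floor, where a change of the gene cannot be read, so these pairs say nothing of different transcript stretches. Leaving such probe sets out, a choice made after seeing the data, 6 of 38 pairs differed, against 11.2% of 5000 pairs over all genes, and they came from 5 genes. For Flnc both probe sets rose, the dimmer by 0.53 less (adjusted p = 0.0113). For Tpm1, 2 dimmer probe sets rose more than the brightest, by 0.64 (adjusted p = 0.00469) and 0.47 (adjusted p = 0.00516), and for Tpm2 the difference was 0.31 (adjusted p = 0.0348). In Pdlim5 a dimmer probe set of middle level fell less than the brightest, by 0.70 (adjusted p = 0.0056), and in Pdlim7 the difference was 0.42 (adjusted p = 0.013), with a log2 fold change of -0.00 at the dimmer. In place of 9 of the 47 pairs, 14 passed without ShControl replicate 2 and 6 without ShSuz12 replicate 2, 2 by the methods' t-test with adjustment, and 5 and 4 with the filters on dim probe sets. Tpm1 and Tpm3 give several spliced forms, and which form each probe set reads was not determined here.

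**Figure D5:**
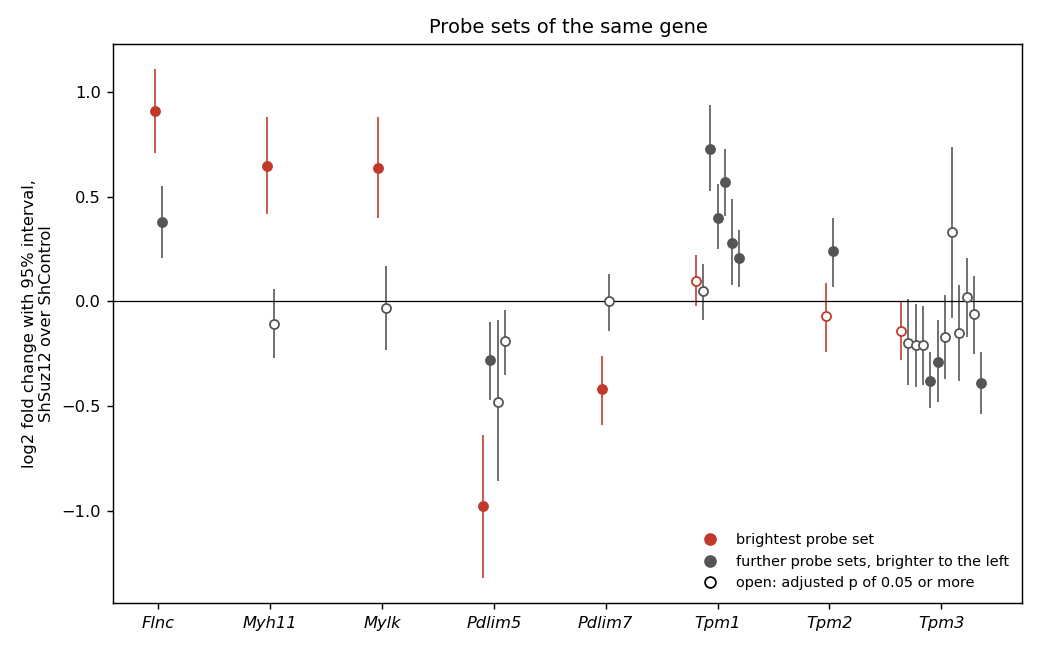
Log2 fold change of ShSuz12 over ShControl with 95% intervals at each probe set of 8 genes, from brightest (red, left) to dimmest; filled points passed an adjusted p under 0.05. The brightest Tpm1 probe set lies at 0.10 and dimmer ones reach 0.73, Tpm3 runs from -0.39 to 0.33 over 12 probe sets, and one probe set each of Myh11, Mylk and Pdlim7 lies near 0 beside another that changed, those of Myh11 and Mylk near the floor.

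Further pathway genes were read at the brightest probe set. The list of cofactors and early targets of SRF and its coactivators held 24 symbols, some of them older names of other listed genes. Of the 20 genes measured, 8 rose and 6 fell, against 17.1% and 23.3% of all genes. Ankrd1, a cardiac ankyrin repeat protein of the nucleus and sarcomere, was at 8.41, 8.46 and 8.26 in ShSuz12 cells, against 10.06, 10.03 and 10.20 in ShControl cells, and fell by 1.72 (SE 0.07, adjusted p = 1.46e-06 from limma). Filip1l, a filamin A interacting protein, was at 7.79, 7.80 and 7.86 in ShSuz12 cells, against 6.12, 6.23 and 6.06 in ShControl cells, and rose by 1.68 (SE 0.06, adjusted p = 5.63e-07 from limma). The matricellular gene Ccn1 fell by 0.88 and Mustn1, a small nuclear protein of muscle and skeleton, by 0.85. The early response genes Fos, Fosl1, Egr1, Egr2 and Junb rose by 0.36 to 0.79, while Egr3 fell by 0.31. Ier2, which was bright (log2 fold change -0.06), and Fosb, near the floor (-0.02), did not pass. A dimmer Fos probe set of middle level did not pass either (0.00).

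Of the genes of actin turnover, the 4 that follow were taken for the size of their changes and do not describe the others. Tmod2, a tropomodulin that caps the pointed ends of filaments, rose by 0.89, at 6.18, 6.29 and 6.29 in ShSuz12 cells, against 5.46, 5.43 and 5.19 in ShControl cells (adjusted p = 9.70e-05 from limma). Diaph3, a formin that elongates filaments, fell by 0.86, at 8.37, 8.30 and 8.38 in ShSuz12 cells, against 9.11, 9.24 and 9.27 in ShControl cells (adjusted p = 2.30e-05 from limma). Cfl2, the muscle cofilin that severs filaments, fell by 0.43, and Tmsb4x, thymosin beta 4, which holds actin monomers, rose by 0.38. Of 29 further contractile and adhesion genes, 26 were measured, 4 rose (15.4%) and 5 fell (19.2%), both below the 17.1% and 23.3% of all genes. With each array's median subtracted 16 fell (61.5%), against 41.7% of all genes. Sorbs2, a vinculin-binding adaptor of stress fibers and Z discs, was at 7.71, 7.42 and 7.57 in ShSuz12 cells, against 4.41, 4.40 and 4.45 in ShControl cells, where it was near the floor. Against the near-floor limit of 4.45 the ShSuz12 mean of 7.57 was at least 8.71-fold higher (adjusted p = 6.25e-08 from limma). Lims2, a partner of integrin-linked kinase, rose by 1.11 and the focal adhesion protein gene Tns3 by 0.58, and Myl12b, a second regulatory light chain gene beside Myl12a, fell by 0.36.

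Markers of other cell types were read at the brightest probe set, where 17.1% of all genes rose and 23.3% fell. Of 7 fibroblast markers, 4 rose by at least 2-fold (Col1a2, Col3a1, Dcn and Lum), against 3.10% of all probe sets. In ShControl cells 3 of the 7 were already bright (Col1a1, Col3a1 and Dcn) and 2 were near the floor (Lum and Dpt). The mean level of the 7 was 8.88 to 8.89 in ShSuz12 cells, against 7.57 to 7.69 in ShControl cells. Of 7 pericyte markers 1 rose (Pdgfrb, by 1.66), with a mean level of 4.99 to 5.01 in ShSuz12 cells and 4.71 to 4.80 in ShControl cells, and the defining marker Rgs5 was near the floor in both groups. Of 11 epithelial markers 1 rose (Krt19, by 1.19) and 2 fell (Cdh1 by 0.76 and Krt8 by 0.41). Those were 9.09% and 18.2%, both below the shares of all genes. The mean level of the 11 was 6.02 to 6.09 in ShSuz12 cells and 6.04 to 6.09 in ShControl cells. Cdh1 was bright in both groups, at 11.79 or more in ShSuz12 cells and 12.51 or more in ShControl cells, while Epcam, Krt18, Cldn4 and Cldn7 were near the floor. In skeletal muscle 2 of 10 markers rose (Myh1 by 0.47 and Tnnt3, near the floor, by 0.16), with Myod1 and Myf6 near the floor. Myh1 was bright, with a ShControl mean of 9.92. Of its further probe sets, all bright, those at 0.55, 0.40 and 0.20 passed and that at -0.03 did not (adjusted p = 0.789 from limma). What the Myh1 probe sets read was not determined. In cardiac muscle 1 of 7 rose (Pln by 0.96), with Myh7 and Tnnt2 near the floor. Of 2 Myh6 probe sets of nearly equal level, the brighter over all arrays was near the floor in both groups, and the other averaged 4.59 in ShSuz12 cells, just above the floor limit, and 3.94 in ShControl cells (adjusted p = 0.00478 from limma). For leukocytes 0 of 6 rose and 2 fell (Cd68 and Itgam), with 1 higher and 3 lower at an unadjusted p under 0.05 from limma, and for endothelium 1 of 5 rose (Kdr by 0.78), with Ptprc and Pecam1 near the floor in both groups. The part of these cell types in the members' changes was not tested.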

How the data were processed

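The authors hybridized RNA to Affymetrix RAE230 2.0 arrays and deposited log2 values from RMA, run in FlexArray 1.6.1 (the version of RMA itself was not stated). RMA corrects the background, normalizes between arrays and summarizes each probe set to 1 log2 value. The table's direction and scale were checked against Suz12 and the value range. Groups came from the sample labels, and the number of arrays, 3 for each group, limits the precision.

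From these values, 31042 probe sets were fitted by limma 3.58.1 under R 4.3.3 (lmFit, then eBayes), after removal of 57 controls. Tests were two-sided with Benjamini-Hochberg adjustment over all of them. The p-values measure the spread between independent experiments of 1 cell line a group. The platform annotation gave 1 symbol to 20826 probe sets, several to 436, and did not list 9780; the GRCr8 gene table changed 0 symbols. The brightest probe set by mean over all arrays stood for a gene. Differences between probe sets of a gene were fitted in the same way over 6609 pairs. The fit was tested on simulated data. Promoter sequences were RefSeq's for GRCr8. Figures were drawn with matplotlib 3.10.9.

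The members and lists were chosen with earlier results of these data known. Genes were named by a rule: changes of at least 2-fold, all actins, Srf, Myocd and Mrtfa, the 3 largest changes that passed in each role group, genes whose probe sets disagreed, and up to 4 of each pathway list. Members and markers named beyond that rule were named after their values were seen, and the counts of 1 pathway list are not reported here. Alternatives were the methods' t-test, an intensity trend with robust eBayes, filters that kept probe sets above the 40th or the 60th percentile on at least 2 of 3 arrays in a group, subtraction of array medians, quantile normalization applied again, the replicate number as a block, 1 brightest probe set or the mean of all for a gene, other class limits and leaving out each array. Replicate numbers did not pair the samples.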

Additional observations from a re-analysis of the deposited data

How the results depend on the processing

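The count of member probe sets higher in ShSuz12 cells was 19 and that of lower ones 28. The filter at the 60th percentile left 12 higher, 1 brightest probe set for a gene 10, and the mean of all probe sets of a gene 12, with fewer probe sets tested in each case. Subtracting each array's median, which differed by 0.10 between the groups, gave 15 higher and 49 lower, 1 of the lower by at least 2-fold in place of 0. Leaving out each array gave 16 to 18 higher, 21 to 34 lower, 3 to 4 at least 2-fold higher, 0 to 1 at least 2-fold lower, 18 to 25 bright and lower, and 6 to 14 pairs that disagreed. Among near-floor probe sets the 1 higher call, of Thy1, became 0 under the methods' t-test with adjustment. It was also 0 under both filters and with 1 brightest probe set for a gene. Those settings leave this probe set out, so they cannot test its call. The count was 2 with the gene's probe sets averaged and 3 with class limits at the 33rd and 67th percentile. Beside the 23 bright and lower probe sets, 17 genes were bright and lower with 1 brightest probe set for a gene tested by themselves. With the gene's probe sets averaged it was 10 genes, with the level classes set anew on those averages. Pairs that disagreed numbered 2 under the methods' t-test and 5 and 4 under the filters at the 40th and 60th percentile, in place of 9, and 6 when near-floor probe sets were left out, an alternative added after seeing the data. At its unadjusted P of 0.05 the methods' t-test called 20 higher and 32 lower. With the replicate number as a block, 18 were higher and 29 lower, and the calls of Srf (adjusted p = 0.0646) and of a Tpm2 probe set (adjusted p = 0.0532) were lost and no other among the named probe sets. Same-numbered arrays of the groups correlated at 0.017, -0.042 and -0.064 in their deviations from the group means, so the numbers were not treated as pairs. Of 815 alternative values for 65 named probe sets, 735 kept direction and side of the threshold, 68 lost the call, 8 gained it and 4 changed sign. The sign changes were Actg2 at 0.01 without ShControl replicate 1 and 0.05 without ShSuz12 replicate 3 (range with 1 array left out -0.15 to 0.05), Myocd at 0.02 without ShSuz12 replicate 3 (range -0.09 to 0.02), and the brightest Tpm1 probe set at -0.00 after median subtraction. None of these 3 genes had passed at those probe sets. The cause of the changes was not tested. A fall below the floor cannot be read on these arrays.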
